A study of Rattus norvegicus with 12 samples.

Results

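Cholesterol and fatty acid synthesis genes were followed in PAC1 cells, a smooth muscle line from rat pulmonary artery, in which 1 of 3 splicing regulators was depleted by siRNA. The 36 genes, out of 33294 gene symbols in the count table, were given as a list of symbols and comprise 18 enzymes that lead from acetyl-CoA to cholesterol (called sterol enzymes below), 5 genes of the sterol-sensing machinery (regulators), 3 genes that move sterols within or out of the cell (sterol transport) and 10 genes of fatty acid and glycerolipid synthesis (fatty acid genes). All 36 were present and all passed the filter on low counts, with at least 55 counts in every library. The 12 poly(A)-selected libraries fell into 4 groups of 3. One group received a scrambled control siRNA (control) and the others received 1 siRNA against RBPMS (RBPMS-KD), RBFOX2 (RBFOX2-KD) or QKI, listed as Qk (QKI-KD). All 4 groups were otherwise the same cell line in serum-containing medium. The study describes these knockdowns as made in differentiated PAC1 cells, which it found less differentiated than those of its other RNA-seq experiment. The labels give 90 pmol of siRNA, with a repeat dose at 24 h and lysis 48 h after that. Longer intervals stand in the study's methods, and which applies is not known. With 1 siRNA per target, an effect of the siRNA sequence and an effect of losing the protein cannot be told apart.

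Cholesterol synthesis starts with the condensation of acetyl-CoA, runs through mevalonate and farnesyl diphosphate to squalene, and ends with the conversion of lanosterol to cholesterol. Fatty acid synthesis draws on the same acetyl-CoA, which is carboxylated, built into palmitate and then elongated and desaturated. Both branches are classically driven by SREBP transcription factors (genes Srebf1 and Srebf2), which SCAP escorts to the Golgi for activation and which INSIG proteins hold back in the endoplasmic reticulum when sterols are plentiful. Smooth muscle cells make cholesterol for their own membranes and caveolae, and cholesterol-loaded smooth muscle cells are a known component of atherosclerotic plaques.

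Library totals lay between 111 and 152 M counts, and the 36 genes held 0.2243% to 0.2764% of them. RBPMS-KD 2 stood apart from its replicates, with a chi-square per degree of freedom over genes of 57.8 and 45.6 against them, while the other pairs within groups gave 4.64 to 21.5. Without it 22 rather than 23 of the 36 genes passed in RBPMS-KD, with 9 sterol enzymes and 7 fatty acid genes as before. The siRNA targets fell in their own groups, from 40.7 ± 2.60 to 7.21 ± 0.301 counts per 1000000 of the scaled library total (CPM; mean ± SD, n = 3) for Rbpms, from 154 ± 4.37 to 37.3 ± 0.943 CPM for Rbfox2 and from 233 ± 7.04 to 26.6 ± 0.649 CPM for Qk. The groups were not depleted of 1 RNA alone, since Rbpms was also at 23.1 ± 1.90 CPM in RBFOX2-KD and 29.0 ± 0.957 CPM in QKI-KD, and Qk at 174 ± 1.32 CPM in RBFOX2-KD. Smooth muscle markers (Acta2, Tagln, Cnn1, Myh11, Myl9, Lmod1 and Des) were present, with a summed level of 2019 to 2086 CPM in control libraries, 959 to 1080 CPM in RBPMS-KD, 697 to 801 CPM in RBFOX2-KD and 1338 to 1423 CPM in QKI-KD. Of these 7 markers, 5 fell and 2 rose in RBPMS-KD, 5 fell and 1 rose in RBFOX2-KD, and 4 fell and 2 rose in QKI-KD, the sums being carried by Acta2, Tagln and Myl9. Acta2 fell from 990 ± 16.3 CPM to 315 ± 13.9, 229 ± 20.2 and 444 ± 25.6 CPM, while Myh11 rose in all 3 knockdowns (log2 fold change 0.34, 1.05 and 0.19). The rise of Myh11 in QKI-KD barely passed the threshold given below. Its QKI-KD libraries (7.07, 6.59 and 8.48 CPM) overlapped with control (6.72, 6.34 and 6.37 CPM). The part of these marker changes in the lipid gene results was not tested. Adipocyte markers (Adipoq, Plin1, Fabp4, Cidec and Lep) summed to at most 0.524 CPM in any library. Macrophage markers (Ptprc, Cd68, Adgre1, Csf1r and Lyz2) summed to 1.44 to 1.62 CPM in control, 2.01 to 2.51 CPM in RBPMS-KD, 1.92 to 2.44 CPM in RBFOX2-KD and 5.49 to 5.98 CPM in QKI-KD, the last mostly from Csf1r (3.63 ± 0.337 CPM) and Cd68 (1.98 ± 0.0931 CPM), with Ptprc and Adgre1 too low to test. Endothelial markers (Pecam1, Cdh5, Vwf and Kdr) summed to 7.70 to 9.32 CPM in control, 6.57 to 7.29 CPM in RBPMS-KD, 3.72 to 4.62 CPM in RBFOX2-KD and 4.27 to 4.88 CPM in QKI-KD, with Kdr too low to test. Epcam and Cdh1, of epithelium, together reached at most 0.191 CPM outside QKI-KD and 0.635 to 0.928 CPM in it. In bulk RNA, fewer cells of one state and less RNA per cell cannot be told apart.

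Changes of these genes were frequent, as they were over all genes tested, and few exceeded 2-fold. All 36 genes had a mean of at least 200 counts, while the genes tested include much lower ones. The shares compared below were not matched for level. A gene was called changed at an adjusted p under 0.05 in edgeR's quasi-likelihood test, with Benjamini-Hochberg adjustment over 18438 genes tested. In RBPMS-KD 23 of 36 genes passed (63.9%, against 59.4% of all genes tested), of which 5 rose (13.9%, against 30.4%) and 18 fell (50%, against 29%). In RBFOX2-KD 27 passed (75%, against 60.3%), with 7 higher (19.4%, against 30.1%) and 20 lower (55.6%, against 30.1%). In QKI-KD 30 passed (83.3%, against 66.9%), with 12 higher (33.3%, against 32.9%) and 18 lower (50%, against 34%). The median log2 fold change over the 36 genes was -0.13, -0.14 and -0.13 in RBPMS-KD, RBFOX2-KD and QKI-KD, against 0.0085, 0.015 and 0.0070 over all genes tested. Changes above 2-fold, the study's own limit, were made by 0 of the 36 genes in RBPMS-KD (9.66% of all genes tested), by 1 in RBFOX2-KD (11.7%) and by 3 in QKI-KD (17.5%). That 1 gene was Fads2, and the 3 were Ebp, Insig2 and Abcg1, all lower than control.

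**Figure D1:**
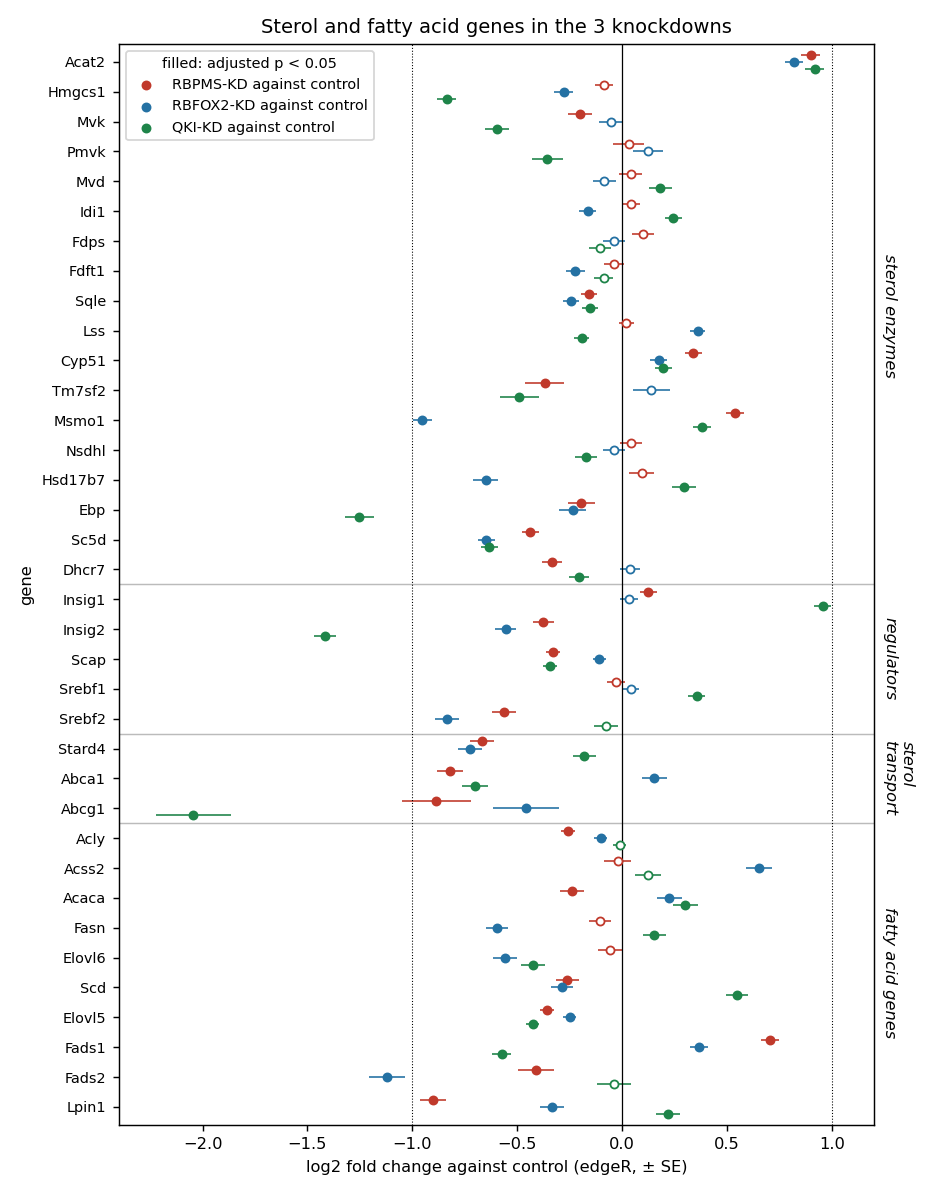
Log2 fold change of each of the 36 genes (rows) against control on the horizontal axis, with the SE of the edgeR fit as bars. Colours mark the 3 knockdowns, filled points an adjusted p under 0.05 and dotted lines a 2-fold change. Acat2 lies near 0.9 in all 3 knockdowns, whereas Msmo1 and Fads1 have points on both sides of 0.

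Acat2 and Cyp51 rose in all 3 knockdowns (5.56% of the 36 genes, against 12.3% of all genes tested), and 8 genes fell in all 3 (22.2%, against 12.5%), namely the sterol enzymes Sqle, Ebp and Sc5d, the regulators Insig2 and Scap, the transport genes Stard4 and Abcg1, and the elongase Elovl5. A further 15 genes passed in 1 or 2 knockdowns in 1 direction only (41.7%, against 41.6%). For 10 genes (27.8%, against 19.2%), 1 knockdown gave a rise and another a fall, each past the threshold: the sterol enzymes Idi1, Lss, Msmo1 and Hsd17b7, the transporter Abca1, and Acaca, Fasn, Scd, Fads1 and Lpin1. These are 5 of the 10 fatty acid genes and 4 of the 18 sterol enzymes (50% and 22.2%, against the same 19.2% of all genes tested), and the difference between the branches was not tested. Fdps, the synthase of farnesyl diphosphate, passed in none (2.78%, against 14.4%). The 3 comparisons share their control libraries, so the direct comparisons between knockdowns, whose contrasts leave out the control coefficient, are given below.

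The sterol and fatty acid branches had their lowest medians in different knockdowns. The median over the 18 sterol enzymes was 0.03 on the log2 scale in RBPMS-KD, -0.07 in RBFOX2-KD and -0.16 in QKI-KD. The median over the 10 fatty acid genes was -0.25 in RBPMS-KD, -0.27 in RBFOX2-KD and 0.05 in QKI-KD. Of the sterol enzymes, 3 rose (16.7%) and 6 fell (33.3%) in RBPMS-KD. In RBFOX2-KD 3 rose (16.7%) and 8 fell (44.4%), and in QKI-KD 6 rose (33.3%) and 10 fell (55.6%). Of the fatty acid genes, 1 rose (10%) and 6 fell (60%) in RBPMS-KD. In RBFOX2-KD 3 rose (30%) and 7 fell (70%), and in QKI-KD 4 rose (40%) and 3 fell (30%). Of all genes tested, 30.4% rose and 29% fell in RBPMS-KD, 30.1% and 30.1% in RBFOX2-KD, and 32.9% and 34% in QKI-KD. Scaling by library totals alone changed the sterol median in RBPMS-KD to -0.019, and leaving out RBPMS-KD 2 changed it to -0.052, so its sign is not determined by these libraries. With library totals the sterol median was -0.015 in RBFOX2-KD and -0.078 in QKI-KD, and the fatty acid median in QKI-KD was 0.14. In the authors' normalised table the QKI-KD medians were -0.071 (sterol) and 0.17 (fatty acid), and without control 3 the fatty acid one was 0.11. The difference between the branches was not tested, since the genes are not replicates.

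**Figure D2:**
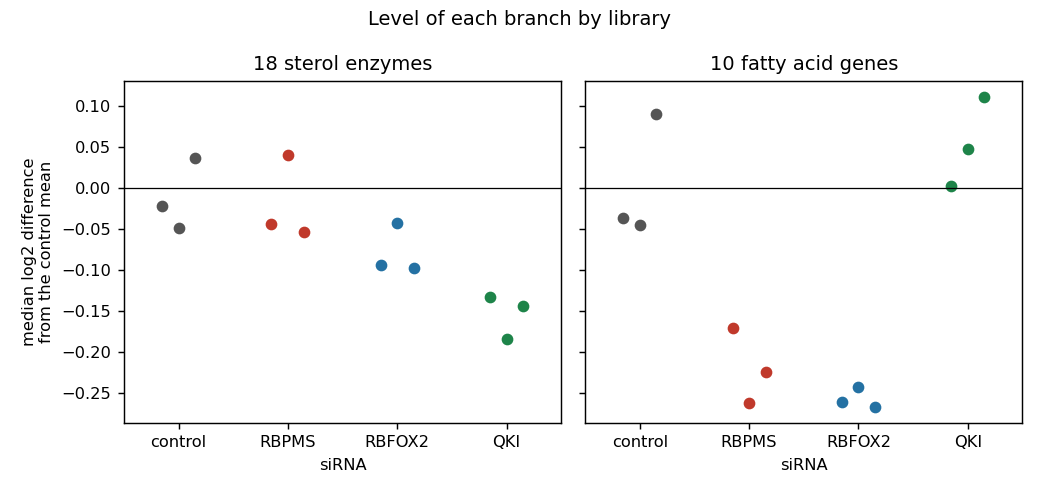
Median log2 difference from the control mean (vertical axis) over the 18 sterol enzymes (left) and the 10 fatty acid genes (right), with 1 point per library and 3 libraries per siRNA group (horizontal axis). For the fatty acid genes, all RBPMS-KD and RBFOX2-KD libraries (-0.17 to -0.27) lie below the control libraries (-0.04 to 0.09) and the QKI-KD libraries (0.0025 to 0.11) do not.

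By library, the fatty acid median (each gene taken as its log2 difference from its control mean) lay between -0.17 and -0.26 in RBPMS-KD and between -0.24 and -0.27 in RBFOX2-KD, below every control library. The sterol median lay between -0.13 and -0.18 in QKI-KD, below every control library (-0.05 to 0.04), while the RBPMS-KD values (-0.05 to 0.04) overlapped with control. The summed level of the fatty acid genes, to which Fasn gave the most counts, was 1178 ± 53.7 CPM in control, 1056 ± 55.02 CPM in RBPMS-KD, 960 ± 9.98 CPM in RBFOX2-KD and 1206 ± 19.8 CPM in QKI-KD. The summed level of the sterol enzymes was 891 ± 30.9, 975 ± 43.6, 819 ± 6.20 and 870 ± 14.6 CPM in the same order. The sum in RBPMS-KD libraries (947, 1025 and 953 CPM) was above every control library although more sterol enzymes fell than rose, and the highest of the 3 was RBPMS-KD 2.

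The promoters of the 3 sterol enzymes that differed most between RBFOX2-KD and QKI-KD (Msmo1, Ebp and Hsd17b7, described below) are shown because promoters of this pathway are known to carry SREBP and NF-Y sites close to the start of transcription. RefSeq windows of assembly GRCr8, 250 bases before to 50 bases after the start, were at hand for 28 of the 36 genes. The NF-Y core CCAAT, on either strand, occurred in 21 of 28 (75.0%) against 39.6% of 27457 rat genes with windows of the same length. A gene was counted if any of its windows matched, and the 27457 genes were not limited to those expressed here. By group it occurred in 12 of 15 sterol enzymes, 5 of 7 fatty acid genes and 4 of 6 regulators and transport genes. The sterol regulatory element in the form TCACNCCAC, on either strand, occurred in 0 of 28 and in 1.25% of all. These matches are letters only and were not read as binding sites. The 200 bases before the start are printed on the strand of the gene, with CCAAT or its complement ATTGG in capitals. They lie at chr16:29746913-29747112 (plus strand) for Msmo1, chrX:16971262-16971461 (plus strand) for Ebp and chr13:84722755-84722954 (minus strand) for Hsd17b7 in GRCr8.
Msmo1: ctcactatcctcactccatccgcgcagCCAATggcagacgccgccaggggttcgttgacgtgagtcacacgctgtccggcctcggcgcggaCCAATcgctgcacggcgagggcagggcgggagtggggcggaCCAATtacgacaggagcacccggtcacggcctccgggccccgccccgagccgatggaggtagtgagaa
Ebp: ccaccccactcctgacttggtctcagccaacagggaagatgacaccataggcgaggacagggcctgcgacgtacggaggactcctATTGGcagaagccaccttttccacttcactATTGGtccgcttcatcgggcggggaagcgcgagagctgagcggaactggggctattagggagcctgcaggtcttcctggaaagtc
Hsd17b7: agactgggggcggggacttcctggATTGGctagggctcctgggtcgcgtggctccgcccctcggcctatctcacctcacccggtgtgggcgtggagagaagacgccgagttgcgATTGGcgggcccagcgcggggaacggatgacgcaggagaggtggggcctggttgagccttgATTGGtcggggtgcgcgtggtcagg
The matches begin at -173, -109 and -68 from the start in Msmo1, at -115 and -85 in Ebp, and at -176, -86 and -25 in Hsd17b7. Each of the 3 promoters holds the motif more than once.

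Among the early enzymes of the sterol branch, Acat2 gave the most uniform response. Acat2 is the cytosolic acetyl-CoA acetyltransferase that joins acetyl units at the entry to the pathway. Its level was 37.5, 36.3 and 40.4 CPM in control, 69.0, 75.3 and 68.4 CPM in RBPMS-KD, 67.6, 67.8 and 66.1 CPM in RBFOX2-KD and 71.4, 71.6 and 72.7 CPM in QKI-KD. All 9 knockdown libraries lay above all control libraries and close to each other. The log2 fold changes were 0.90 ± 0.04 (SE; adjusted p = 2.4e-11), 0.82 ± 0.04 (adjusted p = 5.4e-11) and 0.92 ± 0.04 (adjusted p = 6.6e-12), and no pair of knockdowns differed past the threshold (adjusted p = 0.057 to 0.73). Acat2l1, a paralogue named in RefSeq as Acat2-like and looked at after the values of Acat2 were seen, went the other way, from 4.40 ± 0.170 CPM to 3.54 ± 0.148, 2.97 ± 0.0445 and 3.09 ± 0.141 CPM. How reads shared by such copies were counted is not stated.

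Hmgcs1, the synthase that makes hydroxymethylglutaryl-CoA, was graded across the knockdowns. It was at 98.0, 96.4 and 109 CPM in control and at 95.2, 96.9 and 93.8 CPM in RBPMS-KD, which overlapped. In RBFOX2-KD it was at 81.4, 84.0 and 84.9 CPM, below all control libraries. In QKI-KD it was at 54.5, 57.3 and 58.4 CPM, the lowest of the 4 groups. The log2 fold changes were -0.09 ± 0.04 (adjusted p = 0.10), -0.28 ± 0.04 (adjusted p = 3.3e-05) and -0.84 ± 0.04 (adjusted p = 2.5e-11). Mvk, mevalonate kinase, fell from 21.6 ± 0.386 CPM to 18.8 ± 1.81 CPM in RBPMS-KD and 14.3 ± 0.0889 CPM in QKI-KD, and was 20.9 ± 0.756 CPM in RBFOX2-KD. Pmvk, which adds the next phosphate, fell in QKI-KD (log2 fold change -0.36 ± 0.07), with values of 0.03 and 0.12 in RBPMS-KD and RBFOX2-KD that did not pass. In contrast, Mvd, the decarboxylase that follows, rose in QKI-KD by 0.18 ± 0.05 on the log2 scale. Idi1, the isomerase of isopentenyl diphosphate, rose in QKI-KD by 0.24 ± 0.04 and fell by 0.17 ± 0.04 in RBFOX2-KD. In QKI-KD the mevalonate segment was therefore split, with Hmgcs1, Mvk and Pmvk lower and Acat2, Mvd and Idi1 higher. Idi1 overlaps Wdr37, and Hmgcs1 and Acat2 overlap long non-coding RNA genes in RefSeq, whose reads cannot be told apart from theirs if strand was not used in counting.

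The steps through squalene to lanosterol changed little. Fdps lay between 105 and 140 CPM in all 12 libraries. Fdft1, squalene synthase, fell in RBFOX2-KD by 0.22 ± 0.05 on the log2 scale, from 43.5 ± 3.37 to 37.3 ± 0.236 CPM. Fdft1 overlaps a long non-coding RNA gene and Fdps a small nuclear RNA gene in RefSeq. Sqle, the squalene epoxidase that is a rate-limiting step of the pathway, fell in all 3 knockdowns, from 72.0 ± 3.57 CPM to 64.4 ± 0.734, 60.7 ± 1.43 and 64.7 ± 1.07 CPM in RBPMS-KD, RBFOX2-KD and QKI-KD. Its call in QKI-KD was lost when libraries were scaled by their totals (adjusted p = 0.12). Lss, which closes the ring to lanosterol, rose in RBFOX2-KD to 47.3 ± 0.538 CPM and fell in QKI-KD to 32.3 ± 0.807 CPM, from 36.9 ± 0.625 CPM in control.

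Among the enzymes that convert lanosterol to cholesterol, Msmo1 gave the widest separation. Msmo1 is the methylsterol monooxygenase that acts on the methyl groups at the fourth carbon of the ring. It was at 107, 112 and 110 CPM in control. In RBPMS-KD it was at 150, 169 and 159 CPM, and in QKI-KD at 138, 141 and 150 CPM. In RBFOX2-KD it was at 54.7, 57.4 and 58.2 CPM. No library of any knockdown overlapped with control. The log2 fold changes were 0.54 ± 0.04 (adjusted p = 1.4e-08), -0.95 ± 0.05 (adjusted p = 9.2e-12) and 0.38 ± 0.04 (adjusted p = 7.0e-07) in RBPMS-KD, RBFOX2-KD and QKI-KD. Hsd17b7, the ketosteroid reductase that acts in the same demethylation complex, was likewise lowest in RBFOX2-KD. In the main fit it was higher in QKI-KD than in RBPMS-KD (log2 difference of RBPMS-KD from QKI-KD -0.20 ± 0.06, adjusted p = 0.0068). Msmo1 was instead higher in RBPMS-KD (0.16 ± 0.04, adjusted p = 0.0056). These small differences were not followed with library totals. The scaling factors were 0.9483 to 0.9578 in RBPMS-KD and 1.039 to 1.046 in QKI-KD. Hsd17b7 was at 11.5, 12.3 and 13.2 CPM in control, 13.3, 12.8 and 13.4 CPM in RBPMS-KD, 7.38, 7.98 and 8.15 CPM in RBFOX2-KD and 14.5, 15.1 and 15.7 CPM in QKI-KD. It fell in RBFOX2-KD by 0.65 ± 0.06 on the log2 scale and rose in QKI-KD by 0.29 ± 0.06. Nsdhl, the dehydrogenase of that complex, did not share the pattern. Its level was 27.4 ± 2.00 CPM in control, 28.2 ± 1.45 CPM in RBPMS-KD, 26.7 ± 0.742 CPM in RBFOX2-KD and 24.3 ± 0.627 CPM in QKI-KD. Its fall in QKI-KD (adjusted p = 0.0083) was lost without control 3 (adjusted p = 0.058), with library totals (adjusted p = 0.15) and in the authors' normalised table (adjusted p = 0.36).

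Ebp, the isomerase that shifts a double bond of the sterol ring, fell most in QKI-KD. It was at 16.5, 15.3 and 15.9 CPM in control and at 6.31, 6.42 and 7.25 CPM in QKI-KD, a fall of 1.25 ± 0.07 on the log2 scale (adjusted p = 3.0e-11). It was at 13.1, 15.1 and 13.3 CPM in RBPMS-KD and at 12.9, 13.7 and 13.9 CPM in RBFOX2-KD, between control and QKI-KD. The smaller fall in RBPMS-KD (adjusted p = 0.016) was lost when control 1, RBPMS-KD 1 or RBPMS-KD 3 was left out (adjusted p = 0.068, 0.070 and 0.068). Sc5d, the desaturase after Ebp, fell in all 3 knockdowns. It was at 63.5, 60.6 and 62.0 CPM in control, 44.6, 46.0 and 46.8 CPM in RBPMS-KD, 38.7, 40.01 and 40.1 CPM in RBFOX2-KD and 41.1, 37.8 and 41.0 CPM in QKI-KD. Fitted log2 fold changes were -0.44 ± 0.04, -0.65 ± 0.04 and -0.63 ± 0.04 (adjusted p = 4.9e-08, 2.9e-10 and 2.3e-10). Cyp51, the lanosterol demethylase, rose in all 3 knockdowns, from 110 ± 7.65 CPM to 139 ± 2.67, 124 ± 0.748 and 126 ± 1.96 CPM. Tm7sf2, a sterol reductase, was at 3.36, 3.34 and 3.21 CPM in control, 2.42, 2.85 and 2.37 CPM in RBPMS-KD, 3.72, 3.44 and 3.75 CPM in RBFOX2-KD and 2.23, 2.31 and 2.51 CPM in QKI-KD. It fell in RBPMS-KD (log2 fold change -0.37 ± 0.09) and in QKI-KD (-0.49 ± 0.09). Dhcr7, which makes cholesterol from its immediate precursor, fell from 18.2 ± 0.619 to 14.5 ± 0.4997 CPM in RBPMS-KD and to 15.8 ± 0.655 CPM in QKI-KD, and was 18.7 ± 0.603 CPM in RBFOX2-KD. The fall of Dhcr7 in QKI-KD (log2 fold change -0.21 ± 0.05) was lost in the authors' normalised table (-0.081, adjusted p = 0.17).

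**Figure D3:**
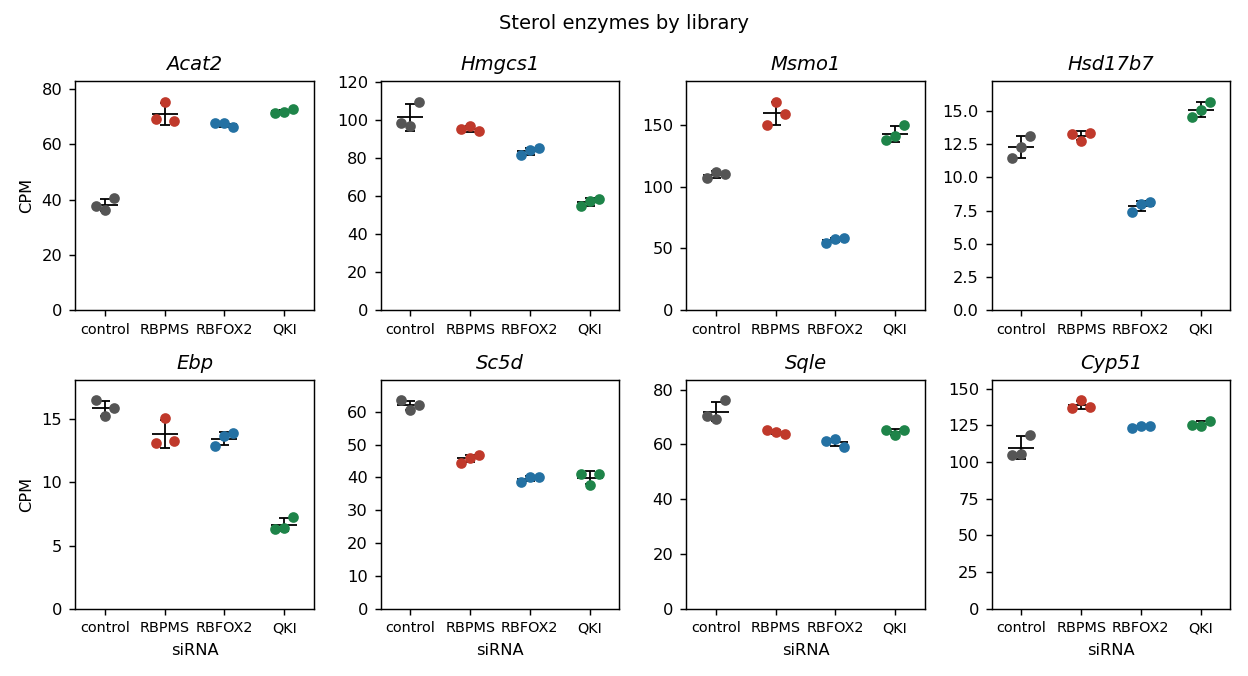
Level in CPM (vertical axes, from 0, each with its own scale) of 8 sterol enzymes in the 3 libraries of each siRNA group (points), with the mean and SD in black. Acat2 is raised in all 9 knockdown libraries, Msmo1 and Hsd17b7 are low in RBFOX2-KD only, and Hmgcs1 and Ebp are lowest in QKI-KD.

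The regulators did not move as 1 group. Srebf2, which encodes the SREBP that chiefly drives cholesterol synthesis, was at 112, 112 and 130 CPM in control. It fell to 84.4, 73.6 and 82.2 CPM in RBPMS-KD and to 66.4, 66.6 and 65.5 CPM in RBFOX2-KD, with no overlap with control. In QKI-KD it was at 108, 113 and 115 CPM, overlapping with control. The log2 fold changes were -0.56 ± 0.06 (adjusted p = 1.6e-07), -0.84 ± 0.06 (adjusted p = 9.7e-10) and -0.08 ± 0.06 (adjusted p = 0.24). Srebf1, whose products chiefly drive fatty acid synthesis, passed in QKI-KD instead. It was at 68.5, 72.7 and 69.1 CPM in control, 66.3, 68.2 and 71.5 CPM in RBPMS-KD and 75.9, 70.5 and 69.9 CPM in RBFOX2-KD, which overlapped. In QKI-KD it was at 89.3, 90.5 and 89.1 CPM, a rise of 0.35 ± 0.04 (adjusted p = 5.4e-07). Srebf1 overlaps Rai1 and Srebf2 holds the microRNA gene Mir33 in RefSeq.

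The INSIG genes moved in opposite directions in QKI-KD. Insig1, itself a known SREBP target, was at 70.9, 70.7 and 69.4 CPM in control, 72.5, 80.4 and 77.1 CPM in RBPMS-KD, 73.2, 72.9 and 69.6 CPM in RBFOX2-KD and 138, 130 and 141 CPM in QKI-KD. It rose in QKI-KD by 0.95 ± 0.04 on the log2 scale (adjusted p = 1.5e-12). Its small rise in RBPMS-KD (0.12 ± 0.04, adjusted p = 0.016) was lost with library totals (adjusted p = 0.11), in the authors' normalised table (adjusted p = 0.13) and without control 3 or RBPMS-KD 2 (adjusted p = 0.056 and 0.052). Insig1 overlaps a long non-coding RNA gene in RefSeq. Insig2, the second anchor protein, was at 22.2, 21.3 and 22.4 CPM in control, 16.3, 17.1 and 17.3 CPM in RBPMS-KD, 15.0, 14.4 and 15.4 CPM in RBFOX2-KD and 8.76, 8.12 and 7.76 CPM in QKI-KD. It fell in each, by 0.38 ± 0.05, 0.56 ± 0.05 and 1.42 ± 0.05 on the log2 scale (adjusted p = 6.2e-06, 5.0e-08 and 2.2e-13). Scap, the escort, was at 142, 146 and 149 CPM in control, 116, 114 and 117 CPM in RBPMS-KD, 133, 138 and 134 CPM in RBFOX2-KD and 112, 116 and 116 CPM in QKI-KD. It fell in RBPMS-KD and QKI-KD by 0.33 ± 0.03 and 0.34 ± 0.03 on the log2 scale, and its fall of 0.11 ± 0.03 in RBFOX2-KD was lost with library totals (adjusted p = 0.15) and in the authors' normalised table (adjusted p = 0.12).

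The transport genes fell, with Abca1 in RBFOX2-KD as the exception. Stard4, a cytosolic sterol carrier and SREBP target, was at 33.5, 32.5 and 35.5 CPM in control, 19.9, 20.9 and 23.1 CPM in RBPMS-KD, 19.4, 20.4 and 21.6 CPM in RBFOX2-KD and 28.8, 30.8 and 29.97 CPM in QKI-KD. Its log2 fold changes were -0.67 ± 0.06, -0.73 ± 0.06 and -0.18 ± 0.06, of which the last was lost with library totals (adjusted p = 0.14) and in the authors' normalised table (adjusted p = 0.23). Abca1, the exporter that loads cholesterol onto apolipoprotein, was at 45.3, 44.4 and 50.2 CPM in control and fell to 28.7, 23.6 and 27.0 CPM in RBPMS-KD and to 27.9, 29.1 and 29.1 CPM in QKI-KD. In RBFOX2-KD it was at 53.5, 51.6 and 50.4 CPM, a rise of 0.15 ± 0.06 (adjusted p = 0.036) that was lost when any 1 of 5 of the 6 libraries compared was left out, control 3 being the exception (adjusted p = 0.057 to 0.16). Abcg1, an exporter to high-density lipoprotein, was low throughout. It was at 2.61, 2.38 and 2.68 CPM in control, 1.43, 1.32 and 1.40 CPM in RBPMS-KD, 1.86, 2.02 and 1.70 CPM in RBFOX2-KD and 0.397, 0.635 and 0.839 CPM in QKI-KD. It had the largest fall of the 36 genes, 2.04 ± 0.18 on the log2 scale in QKI-KD (adjusted p = 1.8e-08), and its fall in RBFOX2-KD was lost without control 3 or RBFOX2-KD 3 (adjusted p = 0.055 and 0.073) and in the authors' normalised table (adjusted p = 0.059).

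**Figure D4:**
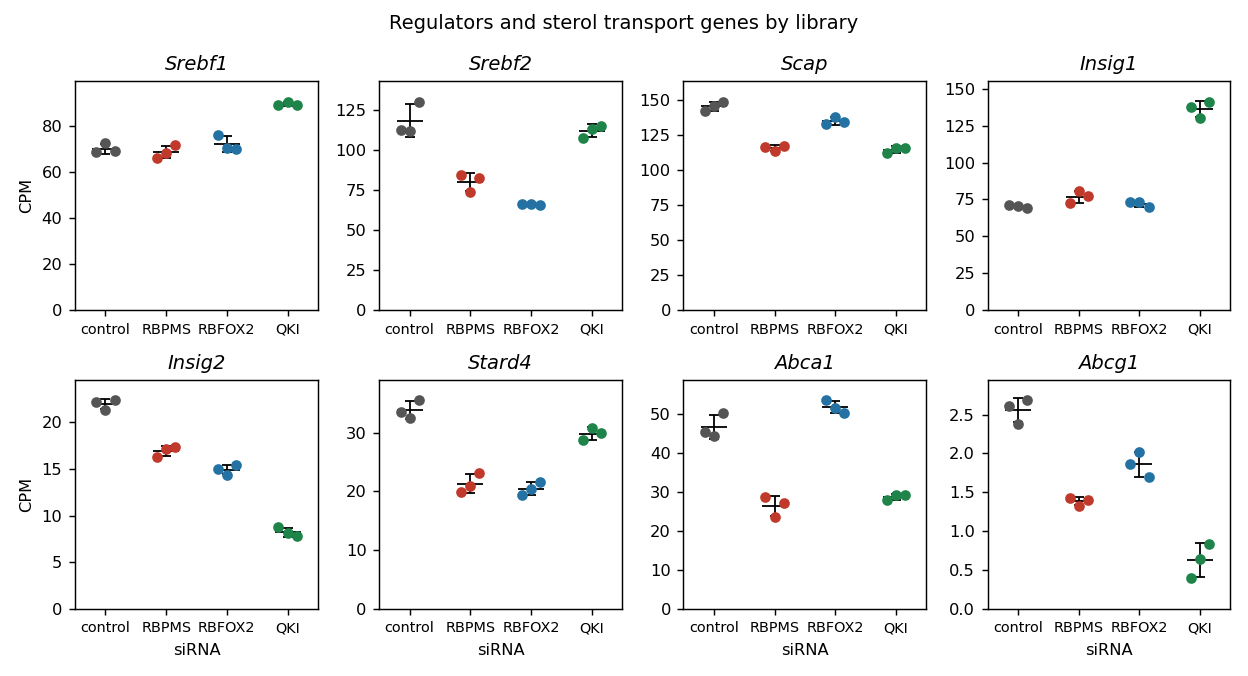
Level in CPM (vertical axes, from 0, each with its own scale) of the 5 regulators and 3 sterol transport genes in the 3 libraries of each siRNA group (points), with the mean and SD in black. Srebf2 is low in RBPMS-KD and RBFOX2-KD, while Srebf1 and Insig1 are high in QKI-KD, where Insig2 and Abcg1 are lowest.

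The supply of acetyl-CoA and the first committed step of the fatty acid branch were affected unevenly. Acly, which makes cytosolic acetyl-CoA from citrate, fell from 231 ± 6.57 to 193 ± 2.62 CPM in RBPMS-KD and to 215 ± 0.346 CPM in RBFOX2-KD, and was 229 ± 6.55 CPM in QKI-KD. The fall in RBFOX2-KD was lost with library totals (adjusted p = 0.20) and in the authors' normalised table (adjusted p = 0.37). Acss2, which makes acetyl-CoA from acetate, was at 11.1, 9.83 and 11.5 CPM in control and rose to 16.9, 17.4 and 16.7 CPM in RBFOX2-KD (log2 fold change 0.65 ± 0.06, adjusted p = 6.8e-08). It was 10.7 ± 0.417 CPM in RBPMS-KD and 11.8 ± 0.611 CPM in QKI-KD, both overlapping with control. Acss2 overlaps a small nucleolar RNA gene in RefSeq. Acaca, the acetyl-CoA carboxylase, fell from 111 ± 7.19 to 94.0 ± 9.96 CPM in RBPMS-KD and rose to 130 ± 2.04 CPM in RBFOX2-KD and 137 ± 1.32 CPM in QKI-KD. In RefSeq it overlaps a coding gene, a pseudogene and a long non-coding RNA.

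Fasn, the fatty acid synthase, was lowered in RBFOX2-KD. It was at 508, 544 and 575 CPM in control and at 363, 362 and 350.4 CPM in RBFOX2-KD, a fall of 0.60 ± 0.05 on the log2 scale (adjusted p = 3.3e-08). It was at 534, 454 and 523 CPM in RBPMS-KD, overlapping with control, and at 596, 596 and 619 CPM in QKI-KD. The rise in QKI-KD (0.15 ± 0.05, adjusted p = 0.017) was lost without control 1 or QKI-KD 3 (adjusted p = 0.11 and 0.071). Elovl6, which lengthens palmitate to stearate, was at 44.2, 43.4 and 51.3 CPM in control, 31.2, 31.3 and 31.8 CPM in RBFOX2-KD and 34.4, 34.8 and 34.1 CPM in QKI-KD. Both groups lay below control (log2 fold change -0.56 ± 0.06 and -0.43 ± 0.06), and it overlapped with control in RBPMS-KD (44.5 ± 2.91 CPM). In QKI-KD the synthase was not lower than control while the elongase after it was.

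The desaturases gave the sharpest contrasts of the fatty acid branch. Scd, a stearoyl-CoA desaturase, was at 13.5, 13.5 and 15.3 CPM in control and rose to 20.4, 20.5 and 20.9 CPM in QKI-KD (log2 fold change 0.55 ± 0.05, adjusted p = 5.8e-08). It fell to 11.8 ± 0.380 CPM in RBPMS-KD and to 11.6 ± 0.237 CPM in RBFOX2-KD. Its paralogue Scd2, singled out after its values were seen, went the other way in QKI-KD, from 528, 517 and 612 CPM in control to 320.2, 329 and 313 CPM, and reads shared by the pair may have been split. Fads1, a front-end desaturase of polyunsaturated fatty acids, was at 31.4, 31.1 and 33.5 CPM in control, 53.0, 53.1 and 50.05 CPM in RBPMS-KD, 42.6, 41.4 and 39.5 CPM in RBFOX2-KD and 21.7, 21.0 and 21.7 CPM in QKI-KD. No 2 groups overlapped. The log2 fold changes were 0.70 ± 0.04 (adjusted p = 3.2e-10), 0.36 ± 0.04 (adjusted p = 1.1e-06) and -0.57 ± 0.04 (adjusted p = 3.0e-09). Fads2, the desaturase that acts before Fads1 in the same pathway, was at 12.5, 10.6 and 14.03 CPM in control, 9.54, 9.07 and 9.34 CPM in RBPMS-KD, 5.99, 5.86 and 5.21 CPM in RBFOX2-KD and 11.96, 11.4 and 12.8 CPM in QKI-KD. It fell by 0.41 ± 0.08 in RBPMS-KD and by 1.12 ± 0.09 in RBFOX2-KD (adjusted p = 0.00045 and 5.3e-09). The neighbouring pair thus moved in opposite directions in RBPMS-KD and RBFOX2-KD, where Fads1 rose and Fads2 fell, and only Fads1 passed in QKI-KD. Fads2 overlaps a long non-coding RNA gene in RefSeq.

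Elovl5, the elongase of polyunsaturated fatty acids, fell in all 3 knockdowns. It was at 173, 164 and 172 CPM in control, 133, 135 and 130 CPM in RBPMS-KD, 141, 144 and 143 CPM in RBFOX2-KD and 126, 128 and 125 CPM in QKI-KD. Its log2 fold changes were -0.36 ± 0.03, -0.25 ± 0.03 and -0.43 ± 0.03. Lpin1, a phosphatidate phosphatase that leads to triglyceride and phospholipid and also acts as a transcriptional coregulator, was at 8.63, 8.41 and 8.19 CPM in control. It fell to 4.45, 4.49 and 4.58 CPM in RBPMS-KD and to 6.35, 7.08 and 6.56 CPM in RBFOX2-KD, and rose to 9.71, 10.02 and 9.57 CPM in QKI-KD. The fall in RBPMS-KD, 0.90 ± 0.06 on the log2 scale (adjusted p = 1.1e-09), was the largest of the 36 genes in that knockdown.

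**Figure D5:**
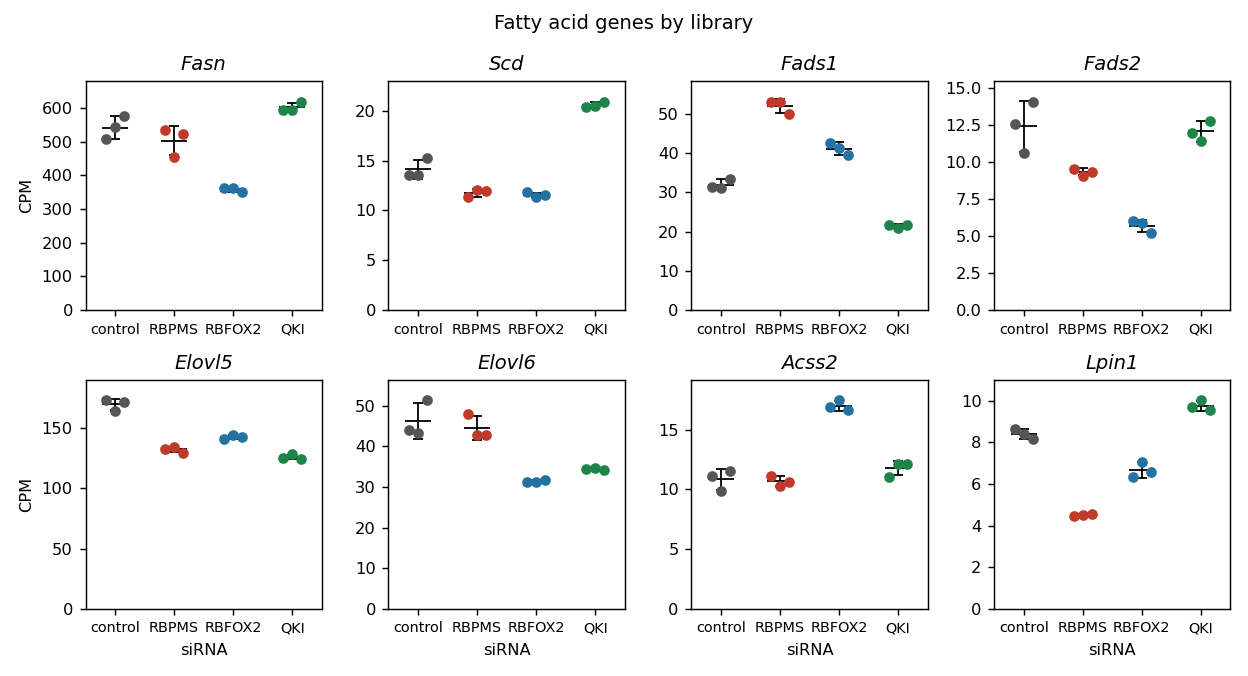
Level in CPM (vertical axes, from 0, each with its own scale) of 8 fatty acid genes in the 3 libraries of each siRNA group (points), with the mean and SD in black. Fads1 is high in RBPMS-KD and RBFOX2-KD and low in QKI-KD, whereas Scd is high in QKI-KD and Fads2 and Fasn are low in RBFOX2-KD.

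Which of these differences held between the knockdowns themselves was asked with contrasts that leave out the control coefficient. The filter, scaling and spread still came from all 12 libraries. RBPMS-KD and RBFOX2-KD differed for 26 of 36 genes (72.2%, against 56.7% of all genes tested), RBPMS-KD and QKI-KD for 28 (77.8%, against 61%) and RBFOX2-KD and QKI-KD for 30 (83.3%, against 68.5%). Between RBPMS-KD and RBFOX2-KD, Msmo1 was 2.81-fold higher in RBPMS-KD (log2 difference 1.49 ± 0.05, adjusted p = 6.3e-14), the only difference above 2-fold in that comparison, and Hsd17b7 was higher by 0.74 ± 0.06. Tm7sf2 was lower in RBPMS-KD (log2 difference -0.51 ± 0.09). Of the fatty acid genes, Fads2 was higher in RBPMS-KD (0.71 ± 0.09) and Acss2 and Lpin1 were lower (-0.67 ± 0.06 and -0.57 ± 0.06). Srebf2 was also higher in RBPMS-KD by 0.27 ± 0.06 (adjusted p = 0.00052), while the differences of Srebf1 and Insig1 did not pass (adjusted p = 0.15 and 0.066).

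Against QKI-KD, both other knockdowns had higher Ebp and Fads1 and lower Scd. RBPMS-KD exceeded QKI-KD in Ebp by 1.06 ± 0.07, in Hmgcs1 by 0.75 ± 0.04, in Mvk by 0.39 ± 0.06 and in Fads1 by 1.28 ± 0.04 on the log2 scale. It was below QKI-KD in Lpin1 (-1.12 ± 0.06) and Scd (-0.81 ± 0.05). RBFOX2-KD was below QKI-KD in Msmo1 (-1.33 ± 0.05), Hsd17b7 (-0.95 ± 0.06), Fads2 (-1.08 ± 0.09) and Scd (-0.83 ± 0.05), and above it in Ebp (1.02 ± 0.07) and Fads1 (0.94 ± 0.04). All of these passed, with adjusted p at or below 1.4e-05. The regulators differed in both directions. Insig2 was higher than in QKI-KD in RBPMS-KD (1.04 ± 0.05) and RBFOX2-KD (0.86 ± 0.05), and Scap was higher in RBFOX2-KD (0.24 ± 0.03) with no difference past the threshold in RBPMS-KD (adjusted p = 0.73). Srebf2 was lower than in QKI-KD in RBPMS-KD (-0.49 ± 0.06) and RBFOX2-KD (-0.76 ± 0.06), Srebf1 was lower (-0.38 ± 0.04 and -0.31 ± 0.04), and Insig1 was lower (-0.83 ± 0.04 and -0.92 ± 0.04).

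Genes that neighbour the 36 in metabolism were read from lists of the same pathways. Their counts are read against the 59.4%, 60.3% and 66.9% of all genes tested that passed in RBPMS-KD, RBFOX2-KD and QKI-KD. In the isoprenoid branches that leave the mevalonate pathway, 6 of 10 genes passed in RBPMS-KD (60%; 5 higher, 1 lower), 9 in RBFOX2-KD (90%; 7 higher, 2 lower) and 7 in QKI-KD (70%; 4 higher, 3 lower). Pggt1b, a subunit of geranylgeranyl transferase, rose in RBPMS-KD, RBFOX2-KD and QKI-KD by 0.68 ± 0.04, 0.77 ± 0.04 and 0.78 ± 0.04 on the log2 scale. Fntb, a subunit of farnesyl transferase, fell in RBPMS-KD by 0.27 ± 0.07 and in QKI-KD by 1.21 ± 0.08 and rose in RBFOX2-KD by 0.29 ± 0.07. Pdss1, which builds the side chain of ubiquinone, rose in RBPMS-KD by 0.58 ± 0.05 and in QKI-KD by 0.48 ± 0.05. It did not pass in RBFOX2-KD (adjusted p = 0.097). Trit1, a tRNA isopentenyl transferase, rose in all 3 knockdowns, by 0.36 ± 0.05 in RBPMS-KD and RBFOX2-KD and by 0.98 ± 0.05 in QKI-KD. Of 17 other sterol genes, 13, 15 and 12 (76.5%, 88.2% and 70.6%) passed in RBPMS-KD, RBFOX2-KD and QKI-KD, with 5, 8 and 4 of them higher. Lbr, a lamin receptor that is also a sterol reductase and acts at the same step as Tm7sf2, rose in all 3 knockdowns, from 40.6 ± 0.608 CPM to 95.1 ± 4.11 CPM in RBPMS-KD, 69.3 ± 1.03 CPM in RBFOX2-KD and 63.5 ± 1.86 CPM in QKI-KD. Mylip, a ligase that degrades lipoprotein receptors, fell in all 3 (log2 fold change -0.84 ± 0.07, -1.10 ± 0.07 and -0.57 ± 0.07). Stard3, a late endosomal sterol carrier, also fell in all 3 (-0.30 ± 0.05, -1.37 ± 0.05 and -0.31 ± 0.05), as did Mbtps2, the site-2 protease that releases SREBP (-0.46 ± 0.05, -0.40 ± 0.05 and -1.02 ± 0.05).

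Of 29 other fatty acid genes tested, out of 34 listed, 23 passed in RBPMS-KD (79.3%; 8 higher, 15 lower), 17 in RBFOX2-KD (58.6%; 9 higher, 8 lower) and 24 in QKI-KD (82.8%; 10 higher, 14 lower). Lpin3, a second phosphatidate phosphatase, rose in all 3 knockdowns, by 0.89 ± 0.05, 0.49 ± 0.05 and 2.16 ± 0.05 on the log2 scale, from 20.5 ± 0.577 CPM in control to 92.0 ± 6.41 CPM in QKI-KD. Hacd1, a dehydratase of very long chain fatty acid synthesis that is prominent in muscle, fell in all 3 knockdowns (-0.75 ± 0.07, -1.55 ± 0.07 and -1.95 ± 0.07). Me1, which supplies NADPH for lipid synthesis, fell in all 3 as well (-0.58 ± 0.03, -0.84 ± 0.03 and -0.34 ± 0.03). Of 22 fatty acid oxidation genes, 16 passed in RBPMS-KD (72.7%; 7 higher, 9 lower), 17 in RBFOX2-KD (77.3%; 9 higher, 8 lower) and 14 in QKI-KD (63.6%; 7 higher, 7 lower). Hadh, a dehydrogenase of beta-oxidation, fell in all 3 knockdowns (-1.01 ± 0.06, -0.36 ± 0.05 and -1.43 ± 0.06). Acads, which acts on short chains, fell in RBPMS-KD and RBFOX2-KD (-0.55 ± 0.05 and -0.36 ± 0.05), and Etfa, part of an electron carrier, fell in RBFOX2-KD and QKI-KD (-1.06 ± 0.05 and -0.44 ± 0.04). Cpt1a, the gate for fatty acid entry into mitochondria, rose in RBPMS-KD and RBFOX2-KD (0.37 ± 0.05 and 0.74 ± 0.05) and fell in QKI-KD (-0.83 ± 0.06).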

How the data were processed

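RNA-seq of 12 PAC1 libraries was used, grouped by their titles. Per the study's methods, the authors aligned reads with STAR to mRatBN7.2. The STAR version is 2.5.2a in the submitters' notes and a later one in the study's methods. The authors deposited raw counts per gene from featureCounts with a RefSeq annotation. They also deposited a normalised signal, made with a noise filter and quantile normalisation. Use of strand and of reads matching several genes is not stated. Of counts from 1 to 19, 68.1% were even (50.9% above 1000), and whether both mates of a read pair were counted is not stated. If they were, the counts printed exceed the fragments sequenced, so a fit on halved counts was tried. Each library held 111 to 152 M counts. These totals exceed the number of reads that the study's methods give for any sample, before or after the subsampling described there. The reason was not tested. Replicates, described as biological in the study, exceeded sampling noise (chi-square per degree of freedom 4.64 to 57.8).

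The count test was edgeR 4.0.16 (R 4.3.3). After filterByExpr, which left 18438 genes, libraries were scaled by TMM and fitted over all 12 libraries with 1 coefficient per group. Tests were two-sided glmQLFTest contrasts with Benjamini-Hochberg adjustment over all genes tested, and the method was tested on simulated counts. SE is the absolute log2 fold change divided by the square root of F. CPM uses the TMM-adjusted total. With 3 against 3 libraries an exact permutation test cannot give a p below 0.1, so adjusted p rest on the model. Alternatives were DESeq2 1.42.0, limma 3.58.1 on log2 of the deposited signal plus 1, other scalings and filters (among them a mean of 200 counts), 6-library fits, a replicate term and leaving out each library.

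The 36 genes, the pathway lists and the tests were chosen with earlier results of these data known. Per-library values are given for regulators and transport genes and, per knockdown, for the 4 sterol enzymes and 4 fatty acid genes with the largest changes that passed without overlap with control, direct values for Srebf1, Srebf2, Insig1 and the 3 of each branch with the largest differences, and neighbours as the 2 largest changes per list at a mean of at least 5 CPM. Promoters come from RefSeq (GRCr8), which is not the authors' build.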

Additional observations from a re-analysis of the deposited data

How the results depend on the processing

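Of 80 calls of the 36 genes against control, 69 kept their direction and their side of the threshold in every alternative. The direct comparisons were refitted only with library totals, DESeq2, a replicate term and 1 library left out. Gene by gene, these refits covered Srebf1, Srebf2, Insig1 and, in each comparison, the genes of each branch with the largest differences. All 25 calls among those results were kept. Apart from Srebf1, Srebf2 and Insig1, the refitted genes were thus chosen for the size of their differences. The other direct values given, among them those of Insig2, Scap and Acat2 and of Msmo1 and Hsd17b7 between RBPMS-KD and QKI-KD, were not refitted. Numbers of genes passed stayed within 1.5 times the values above. Scaling by library totals moved the sterol median to -0.019, -0.015 and -0.078 in RBPMS-KD, RBFOX2-KD and QKI-KD, and the fatty acid median to -0.22 in RBFOX2-KD and 0.14 in QKI-KD. In the authors' normalised table the QKI-KD medians were -0.071 (sterol) and 0.17 (fatty acid). Leaving out 1 library gave medians of -0.052 to 0.045 (sterol, RBPMS-KD), -0.28 to -0.20 (fatty acid, RBPMS-KD), -0.18 to -0.12 (sterol, QKI-KD) and 0.022 to 0.11 (fatty acid, QKI-KD).

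Changes of sign touched only genes that had not passed. In RBPMS-KD with library totals, Pmvk was -0.014, Mvd -0.0053, Idi1 -0.0029, Lss -0.024 and Nsdhl -0.0016, and Lss was -0.0038 in the authors' table. Without 1 library, Pmvk ranged from -0.089 to 0.099, Mvd from -0.038 to 0.078, Fdft1 from -0.073 to 0.026, Nsdhl from -0.012 to 0.093, Acss2 from -0.089 to 0.026 and Elovl6 from -0.11 to 0.023. In RBFOX2-KD with library totals, Mvk was 0.0011, Fdps 0.015 (0.023 in the authors' table) and Nsdhl 0.014. Without 1 library, Nsdhl ranged from -0.096 to 0.0096 and Srebf1 from -0.0053 to 0.066. In QKI-KD, Srebf2 was 0.0099 with library totals, Acly was 0.073 with library totals, 0.022 with the filter on a mean of 200 counts and 0.068 in the authors' table, and Fads2 was 0.047 with library totals and 0.090 in the authors' table. Without 1 library, Acly ranged from -0.037 to 0.0029 and Fads2 from -0.14 to 0.059. Insig1 between RBPMS-KD and RBFOX2-KD was -0.0054 with library totals. The cause of these changes was not tested.

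No pairing by replicate number was seen. Deviations of same-numbered libraries from their group means correlated at -0.055 to 0.039, and those of other-numbered libraries at -0.043 to 0.05. With 3 libraries per group this cannot show that the samples were unpaired. With the replicate block 23, 27 and 30 of the 36 genes passed in RBPMS-KD, RBFOX2-KD and QKI-KD, and the sterol medians were 0.023, -0.070 and -0.16. Under the block 29 rather than 30 of the genes differed between RBFOX2-KD and QKI-KD, and none of the calls against control changed. Depth limits the low genes most, Abcg1 having 55 counts at its lowest.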
